A study of Mus musculus with 3 samples.

Results

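Heat shock proteins of the cytosol and of mitochondria were described through 10 mouse genes, *Hsp90ab1*, *Hsp90aa1*, *Hspa8*, *Hspa1a*, *Hspa1b*, *Hsph1*, *Hspb1*, *Hspa9*, *Hspd1* and *Hspe1*, chosen by symbol among the 22698 genes for which levels were deposited. All 10 were found. The samples were 3 RNA-seq libraries of melan-a cells, labelled replicates 1, 3 and 4. Melan-a is an immortalized line of pigmented mouse melanocytes, here from Ink4a-ARF-/- mice on the C57BL/6J background, so every library lacks this tumour suppressor locus. The cells were untreated and grew at 37 °C with 10% fetal bovine serum, 200 nM 12-O-tetradecanoylphorbol 13-acetate (a phorbol ester that activates protein kinase C) and 200 pM cholera toxin (which raises cyclic AMP). With 1 line and 1 condition there was no heat-shocked counterpart to compare with, and the values describe levels at a constant temperature. Nothing in the labels says whether the replicates were separate cultures, so the spread between them may be technical.

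Heat shock proteins are chaperones, which bind unfolded or partly folded proteins and help them reach or regain their shape. HSP70 proteins bind short exposed stretches of a client in cycles of ATP hydrolysis that J proteins start and nucleotide exchange factors end, and HSP90 takes over clients such as kinases and steroid receptors from HSP70. Cells carry constitutive paralogs, made at all times, and inducible ones, whose transcription rises sharply when heat or other stress frees heat shock factor 1 to bind heat shock elements in their promoters. Mitochondria have an HSP70 of their own, which pulls proteins in from the cytosol, and a folding chamber built of HSP60 with HSP10 as its lid.

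Values are FPKM, read counts divided by gene length and library size, scaled by the authors between libraries with the trimmed mean of M values (TMM). Comparing them between genes as levels per length depends on the length used and on how many reads could be placed, both described below. From the values themselves, the scaled library sizes were estimated at 53900000, 47000000 and 66400000 reads in replicates 1, 3 and 4. Melanocyte identity was checked on *Tyr*, *Tyrp1*, *Dct*, *Pmel*, *Mlana*, *Mitf* and *Sox10*, and all 7 had at least 1 FPKM in every replicate, with summed levels between 5711 and 6557 FPKM. Summed markers of keratinocytes stayed at or below 0.7 FPKM, of fibroblasts at or below 1.93, of leukocytes at or below 1.6 and of endothelial cells at or below 0.03. The leukocyte sum came from *Cd68* alone, with *Ptprc* and *Cd3e* at 0. Most of the fibroblast sum came from *Col1a1*, at 1.51, 1.77 and 1.33 FPKM in replicates 1, 3 and 4, so this marker had at least 1 FPKM in every replicate.

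Short reads can tell paralogs apart only where their sequences differ. The cytosolic HSP90 pair shared 76.8% of 2173 aligned coding bases, with no identical run longer than 33 bases. *Hspa8* shared 74.8% of its coding bases with *Hspa1a* and 74.8% with *Hspa1b*, whereas *Hspa1a* and *Hspa1b* differed at 8 of 1926 coding bases and had an identical run of 638 bases. *Hspa8* and the mitochondrial *Hspa9* shared 63.9%. To show this, 60 coding bases of each gene are given in the 5′ to 3′ direction, at coding positions 25 to 84 of *Hsp90ab1*, 40 to 99 of *Hsp90aa1* and 1 to 60 of the 3 HSP70 genes. Capitals mark bases that differ from the constitutive gene of the same family.

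Hsp90ab1: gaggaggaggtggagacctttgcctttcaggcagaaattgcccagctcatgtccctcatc
Hsp90aa1: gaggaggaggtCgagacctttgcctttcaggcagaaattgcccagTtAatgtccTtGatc
Hspa8: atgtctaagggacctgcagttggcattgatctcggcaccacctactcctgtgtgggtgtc
Hspa1a: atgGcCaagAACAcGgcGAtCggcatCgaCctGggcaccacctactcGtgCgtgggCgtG
Hspa1b: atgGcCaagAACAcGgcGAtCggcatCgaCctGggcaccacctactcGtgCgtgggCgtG

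In these stretches the HSP90 genes differed at 5 bases and each inducible HSP70 gene differed from *Hspa8* at 17, while the *Hspa1a* and *Hspa1b* lines are identical. A read that lies within such a stretch of *Hspa1a* matches *Hspa1b* exactly, and the reverse.

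Heat shock elements, inverted repeats of the unit GAA, were searched for close to the start of the genes. RefSeq promoters (GRCm38.p6) were at hand for 6 of the 10 genes as 8 promoters. None was at hand for *Hsp90ab1*, *Hsp90aa1*, *Hspa8* and *Hspa9*, so promoters of constitutive and inducible paralogs could not be compared. GAANNTTC or TTCNNGAA, forms that are each their own reverse complement and so read the same on both strands, occurred in the 250 bases upstream of the start in 7 of these 8, against 4218 of all 32851 mouse promoters (12.8%). A form with 3 alternating units (GAANNTTCNNGAA or TTCNNGAANNTTC), which contains the shorter motifs, occurred in 2 of 8, against 153 of 32851 (0.466%). These promoters are not independent, since the 2 with the longer form are windows of *Hspd1* and *Hspe1* that hold the same bases read on opposite strands, and the 2 windows of *Hsph1* overlap and share their element. The promoter without an element was the other one of *Hspd1*. The *Hspa1a* and *Hspa1b* windows differed at 3 of 250 bases and held 1 element each, starting 104 bases before the transcription start. The *Hspb1* window held 2, starting 117 and 97 bases before it. The 250 upstream bases of *Hspa1a* and *Hspb1* are shown because these genes are the classical inducible HSP70 and small heat shock protein. A further 30 bases are shown because they hold a run of 3 overlapping elements within the 250 bases upstream of the *Hspe1* start and of a start of *Hspd1*. These 30 bases do not lie between the 2 genes, which overlap, but inside annotated exons of *Hspd1*. The bases were matched exactly to mm9 (NCBIM37), at chr17:35109102-35109351 on the minus strand for *Hspa1a*, chr5:136363539-136363788 on the plus strand for *Hspb1* and chr1:55144897-55144926 on the plus strand for *Hspe1*. Capitals mark the elements.

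Hspa1a: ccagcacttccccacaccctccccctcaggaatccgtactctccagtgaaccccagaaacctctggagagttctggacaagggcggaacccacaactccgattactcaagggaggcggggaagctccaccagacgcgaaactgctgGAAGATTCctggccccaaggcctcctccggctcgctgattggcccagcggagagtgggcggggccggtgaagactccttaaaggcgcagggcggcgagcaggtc
Hspb1: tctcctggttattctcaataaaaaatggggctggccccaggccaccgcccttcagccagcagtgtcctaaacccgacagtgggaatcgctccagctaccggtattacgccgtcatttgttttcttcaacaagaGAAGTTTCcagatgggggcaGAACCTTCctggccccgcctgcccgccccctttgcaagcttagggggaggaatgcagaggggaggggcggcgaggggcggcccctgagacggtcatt
Hspe1: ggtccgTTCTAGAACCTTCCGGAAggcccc

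A match is a description of the letters, not evidence of a bound factor, and binding of heat shock factors was not measured in these samples.

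The constitutive cytosolic chaperones stood far above their inducible paralogs. *Hsp90ab1* and *Hspa8* together made up 83.4% ± 1.57 of the summed FPKM of the 10 genes (SD, n = 3), and the 10 genes together made up 0.401% ± 0.0286 of the FPKM of all genes. All 10 genes had at least 1 FPKM in all 3 replicates, as did 44.1% of all genes, but their mean levels ran from 1.46 FPKM for *Hspa1a* to 872 for *Hsp90ab1*. Their median was 41.7 FPKM, beside 0.277 over all genes and 11.2 over the 10011 genes with at least 1 FPKM in every replicate. *Hsp90ab1*, *Hspa8* and *Hspa9* were among the 1000 genes of highest mean level, which began at 66.0 FPKM and made up 4.41% of all genes.

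**Figure D1:**
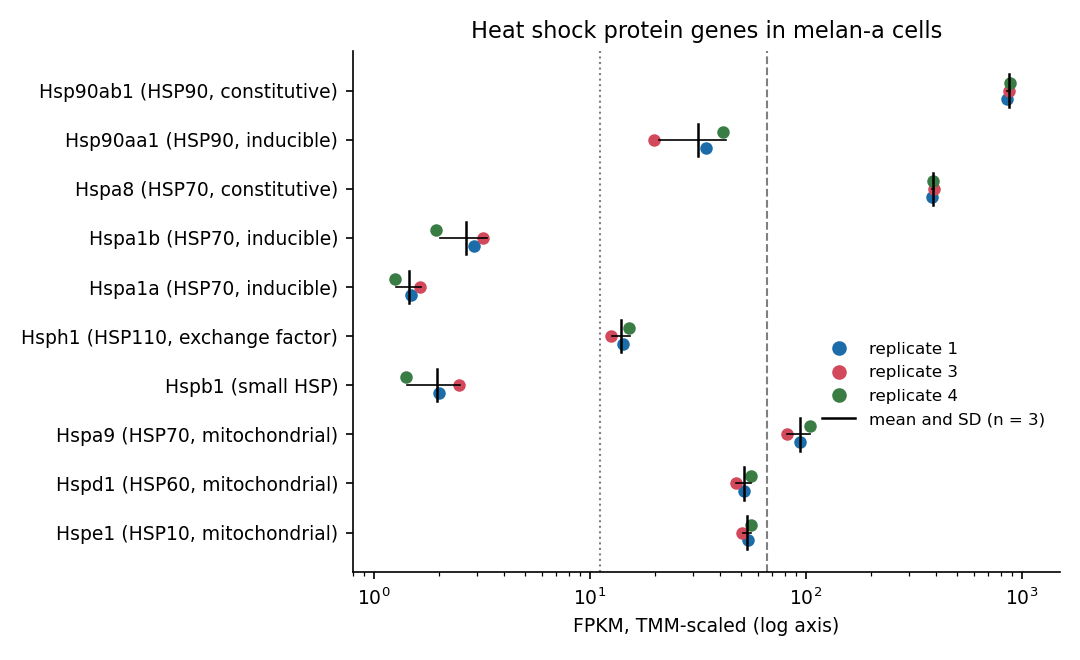
FPKM of the 10 genes (log axis) in replicates 1, 3 and 4, ordered by role; vertical strokes are means and horizontal lines SD (n = 3). *Hsp90ab1* and *Hspa8* sit at 872 and 389 FPKM with points that nearly coincide, *Hspa1a*, *Hspa1b* and *Hspb1* between 1.26 and 3.21 FPKM. The dotted line is the median of genes with at least 1 FPKM in all replicates (11.2) and the dashed line the start of the highest 1000 genes (66.0).

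*Hsp90ab1* (ENSMUSG00000023944, mm9 chr17:45704724-45710220, minus strand) encodes the constitutive HSP90 beta of the cytosol. Its levels of 857, 874 and 885 FPKM in replicates 1, 3 and 4 averaged 872 ± 13.8 (SD, n = 3), and it ranked 35 among 22698 genes. The 3 libraries were nearly level. The coefficient of variation was 1.59%, lower than in all but 2.23% of the genes with at least 1 FPKM in all replicates.

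*Hsp90aa1* (ENSMUSG00000021270, chr12:111928815-111940938, minus strand) encodes the inducible HSP90 alpha. It had 34.5, 19.9 and 41.3 FPKM in replicates 1, 3 and 4, a mean of 31.9 ± 10.9 at rank 2142. Replicate 3 was the lowest by a wide margin, and the coefficient of variation of 34.3% was the highest among the 10 genes. The ranges of the 2 genes did not overlap. *Hsp90ab1* was 24.9, 43.98 and 21.4 times as high as *Hsp90aa1* in replicates 1, 3 and 4, a mean log2 ratio of 4.84 ± 0.54 with 0.1 FPKM added to each level, and it was the higher gene in 3 of 3 replicates. An exact sign permutation test over the replicates (two-sided) gave p = 0.25, adjusted over the 5 pairs compared 0.312, where 0.25 is the smallest value that 3 replicates allow.

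Across compartments, the HSP90 of the endoplasmic reticulum, *Hsp90b1*, had 273, 184 and 370 FPKM and stood between the cytosolic paralogs. *Hsp90ab1* was 3.43 ± 1.21 times as high as *Hsp90b1* (SD, n = 3) and above it in 3 of 3 replicates. The mitochondrial HSP90 *Trap1*, at 35.5 ± 3.52 FPKM, overlapped in range with *Hsp90aa1* and exceeded it in 2 of 3 replicates. As deposited, the order of these 2 was therefore not larger than their spread. With the 40-base division described below, *Hsp90aa1* had 140.5, 81.0 and 168 FPKM, above the deposited *Trap1* in 3 of 3 replicates. Repeated windows were not searched for in *Trap1* and *Hsp90b1*.

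*Hspa8* (ENSMUSG00000015656, chr9:40609067-40613283, plus strand) encodes HSC70, the constitutive cytosolic HSP70, which also strips clathrin from vesicles. It had 385, 391 and 390 FPKM in replicates 1, 3 and 4, a mean of 389 ± 2.86 at rank 105. Its coefficient of variation of 0.736% was the lowest of the 10 genes. The small nucleolar RNA genes *Snord14e*, *Snord14c* and *Snord14d* on the same strand overlap 2.17%, 2.07% and 2.07% of its joined exons.

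The stress-inducible HSP70 pair lies side by side on chromosome 17. *Hspa1a* (ENSMUSG00000091971, chr17:35106144-35109069, minus strand) had 1.48, 1.64 and 1.26 FPKM in replicates 1, 3 and 4, a mean of 1.46 ± 0.191 at rank 9820. *Hspa1b* (ENSMUSG00000090877, chr17:35093381-35096183, minus strand) had 2.90, 3.21 and 1.94 FPKM, a mean of 2.68 ± 0.662 at rank 8805. Both were lowest in replicate 4 and highest in replicate 3, and their ranges did not overlap. These low levels still rested on reads. *Hspa1a* had an estimated 226 to 245 reads per library and *Hspa1b* 361 to 438, far above the 0.0228 FPKM or less that 3 reads give for these genes in the shallowest replicate.

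*Hspa8* was 88.0, 80.6 and 122 times as high as *Hspa1a* and *Hspa1b* summed, in replicates 1, 3 and 4. The mean log2 ratio was 6.54 ± 0.31 with the constitutive gene higher in 3 of 3 replicates (exact sign permutation test, two-sided, p = 0.25, adjusted 0.312). Within the inducible pair the log2 ratio of *Hspa1a* to *Hspa1b* was −0.93, −0.93 and −0.59, a mean of −0.81 ± 0.20, with *Hspa1b* higher in 3 of 3 replicates by 1.96, 1.96 and 1.54 times (exact sign permutation test, two-sided, p = 0.25, adjusted 0.312). Since 62.0% of the 40-base windows of *Hspa1a* had an exact match in *Hspa1b*, the split between these 2 genes rests on the remaining bases and on how shared reads were treated, and is uncertain. In addition, 552 exon bases of *Hspa1a* (18.9%) overlap the gene *Gm20481* on the opposite strand. Whether strand was used in counting is not given in the sources used here, and an effect of this overlap was not tested.

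Among the 14 HSP70 family genes measured, *Hspa8* led, followed by the endoplasmic reticulum HSP70 *Hspa5* (BiP) at 230, 201 and 244 FPKM. *Hspa8* was 1.74 ± 0.180 times as high as *Hspa5* and above it in 3 of 3 replicates. *Hspa9* and *Hspa4* came next, with ranges that overlapped neither each other nor their neighbours. *Hspa14*, *Hsph1* and *Hspa13*, at means of 15.1, 14.0 and 12.6 FPKM, overlapped in range from each to the next, and so did *Hspa1b*, *Hspa4l* and *Hspa1a* at 2.68, 1.82 and 1.46, while neither run overlapped the gene that came after it. This order is of levels as deposited. With the 40-base division described below, the means of *Hspa1b* and *Hspa1a* were 7.81 and 4.04 FPKM, both above that of *Hspa4l* as deposited. Repeated windows were not searched for in *Hspa4l* or other family genes outside the members. *Hspa1l*, a testis HSP70 gene adjacent to the inducible pair on chromosome 17, had 0.01, 0.05 and 0.03 FPKM.

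*Hsph1* (ENSMUSG00000029657, chr5:150416862-150438951, minus strand) encodes HSP110, a large HSP70 relative that serves HSP70 as a nucleotide exchange factor and is heat-inducible. It had 14.3, 12.6 and 15.2 FPKM in replicates 1, 3 and 4, a mean of 14.0 ± 1.35 at rank 4280. It thus lay above the strongly inducible genes and below every other member, with ranges that overlapped no other member. Its close relative *Hspa4* had 49.5 ± 2.49 FPKM.

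*Hspb1* (ENSMUSG00000004951, chr5:136363789-136365433, plus strand) encodes HSP25, the mouse counterpart of HSP27, a small heat shock protein that holds unfolded proteins without using ATP. It had 2.0, 2.48 and 1.41 FPKM in replicates 1, 3 and 4, a mean of 1.96 ± 0.536 at rank 9353, from an estimated 97 to 120 reads per library. Its mean lay between those of *Hspa1b* and *Hspa1a*. Each replicate kept the order *Hspa1b*, *Hspb1*, *Hspa1a*, although the ranges of neighbours overlapped.

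*Hspb1* was not the leading small heat shock protein. *Cryab*, alpha-B crystallin, which is itself a small heat shock protein, had 853, 933 and 842 FPKM, a mean of 876 ± 49.5 at rank 34. As deposited, it was 426, 376 and 597 times as high as *Hspb1* in replicates 1, 3 and 4. Its ratio to *Hsp90ab1* was 0.995, 1.07 and 0.952, so the order of these 2 genes changed between replicates. *Hspb6* had 81.1 ± 6.07 FPKM. With the 40-base division described below, *Hspb1* had 6.12, 7.59 and 4.32 FPKM in replicates 1, 3 and 4. It was then above *Hspb2*, at 3.12, 3.42 and 3.22 as deposited, and still far below *Cryab*. Repeated windows were not searched for in the other small heat shock protein genes. *Cryaa*, the lens crystallin, was listed at 0 in replicates 1 and 4 and at 0.02 in replicate 3, and *Hspb3* was listed at 0 in all replicates.

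**Figure D2:**
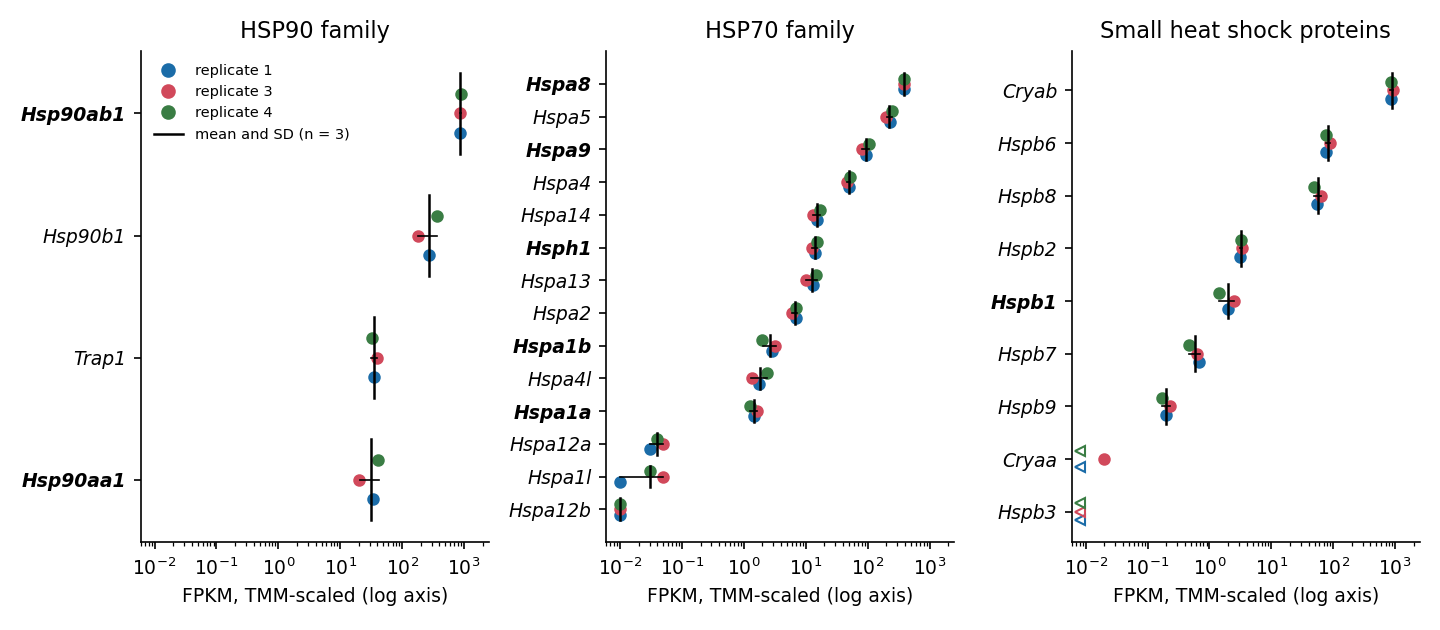
FPKM (log axis) of HSP90, HSP70 and small heat shock protein genes in replicates 1, 3 and 4, with means (vertical strokes) and SD (horizontal lines, n = 3); bold names are among the 10 genes, and open triangles at the left edge are values listed at 0. As deposited, *Hsp90ab1* at 872 FPKM, *Hspa8* at 389 and *Cryab* at 876 lead their families, while *Hspb1* at 1.96 is in the fifth place of 9.

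In mitochondria, *Hspa9* (ENSMUSG00000024359, chr18:35097068-35114011, minus strand) encodes mortalin, the HSP70 of the matrix and motor of protein import. It had 93.6, 82.2 and 105 FPKM in replicates 1, 3 and 4, a mean of 93.6 ± 11.5 at rank 636. It was the third of the 10 genes, and *Hspa8* was 4.12, 4.75 and 3.71 times as high. The log2 ratio of *Hspa8* to *Hspa9* was 2.06 ± 0.18 and above 0 in 3 of 3 replicates (exact sign permutation test, two-sided, p = 0.25, adjusted 0.312).

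The chaperonin genes *Hspd1* (HSP60, ENSMUSG00000025980, chr1:55134679-55145087, minus strand) and *Hspe1* (HSP10, ENSMUSG00000073676, chr1:55144976-55148151, plus strand) lie head to head, and 112 exon bases overlap on opposite strands. *Hspd1* had 51.5, 47.5 and 55.7 FPKM in replicates 1, 3 and 4 and *Hspe1* had 54.3, 50.9 and 55.6. Their means of 51.6 ± 4.10 and 53.6 ± 2.45, at ranks 1328 and 1270, lay within each other's spread. The log2 ratio of *Hspd1* to *Hspe1* was −0.08, −0.10 and 0.00, a mean of −0.06 ± 0.05, below 0 in 2 of 3 replicates (exact sign permutation test, two-sided, p = 0.5, adjusted 0.5). The overlap takes up 4.24% of the joined exons of *Hspd1* and 7.60% of those of *Hspe1*. The libraries were made with a stranded kit, but whether strand was used in counting is not given in the sources used here.

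The share of each gene that reads can be placed on differed widely between them. Each window of 40 or 90 bases of the longest coding transcript was searched for an exact match elsewhere in mm9. Of the 40-base windows, 78.0% in *Hspa8* and 75.5% in *Hsp90aa1* occurred elsewhere, against 13.8% in *Hsp90ab1*, 14.7% in *Hspa9* and 0% in *Hsph1*. The shares were 67.3% in *Hspb1*, 65.6% in *Hspa1b*, 65.3% in *Hspd1*, 63.8% in *Hspa1a* and 53.3% in *Hspe1*. With 90-base windows they ranged from 0% in *Hsph1*, 0.123% in *Hsp90ab1* and 0.304% in *Hspa9* to 63.5% in *Hsp90aa1* and 65.7% in *Hspa8*.

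For *Hspa8*, *Hsp90aa1* and *Hspd1* the locus with the most matches was an annotated pseudogene. The pseudogene *Gm15459* on chromosome 5 held 74.8% of the *Hspa8* windows of 40 bases, *Gm12346* on chromosome 11 held 68.4% of those of *Hsp90aa1* and *Gm12141* on chromosome 11 held 62.1% of those of *Hspd1*. None of these 3 pseudogenes is among the genes with deposited levels. *Gm9817* on chromosome 13, which overlaps a copy of *Hspb1* with 67.3% of its windows, was listed at 0 in all replicates. The read counter that the study names leaves out reads aligned to several places under its default settings. Neither the setting nor the read length is given in the sources used here, so the loss of such reads was not tested, and the 2 window lengths were chosen here.

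Dividing each level by the share of 40-base windows found in a single place changed the order. *Hspa8* then had 1752, 1776 and 1772 FPKM in replicates 1, 3 and 4, above *Hsp90ab1* at 994, 1014 and 1026, whereas as deposited *Hsp90ab1* was 2.24 ± 0.0235 times as high as *Hspa8*. The log2 ratio of *Hsp90ab1* to *Hsp90aa1* fell from 4.84 to 3.02. The means of *Hspd1* at 149, *Hsp90aa1* at 130 and *Hspe1* at 115 were then above that of *Hspa9* at 110, although *Hsp90aa1* was below *Hspa9* in replicate 3 (81.0 against 96.4) and *Hspe1* in replicate 4 (119 against 123). The log2 ratio of *Hspa8* to the inducible pair was 7.23, with *Hspa1a* at 4.04 and *Hspa1b* at 7.81 FPKM. With 90-base windows *Hspa8* also led, at 1134 against 873 FPKM for *Hsp90ab1*, *Hspa9* at 93.9 was again the third by mean, above *Hsp90aa1* at 87.3, *Hspd1* at 83.4 and *Hspe1* at 68.4, and the log2 ratio of *Hsp90ab1* to *Hsp90aa1* was 3.39. Under both divisions each constitutive gene remained above its inducible paralog in 3 of 3 replicates, and *Hsph1*, *Hspa1b*, *Hspb1* and *Hspa1a* stayed the lowest 4 in that order. The division would be exact only if every read from a repeated window, and no other, had been dropped. It would also need the windows to cover the length behind each FPKM. The windows covered the longest coding transcript, which for *Hspa8* has 2394 bases against 4156 of joined exons.

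**Figure D3:**
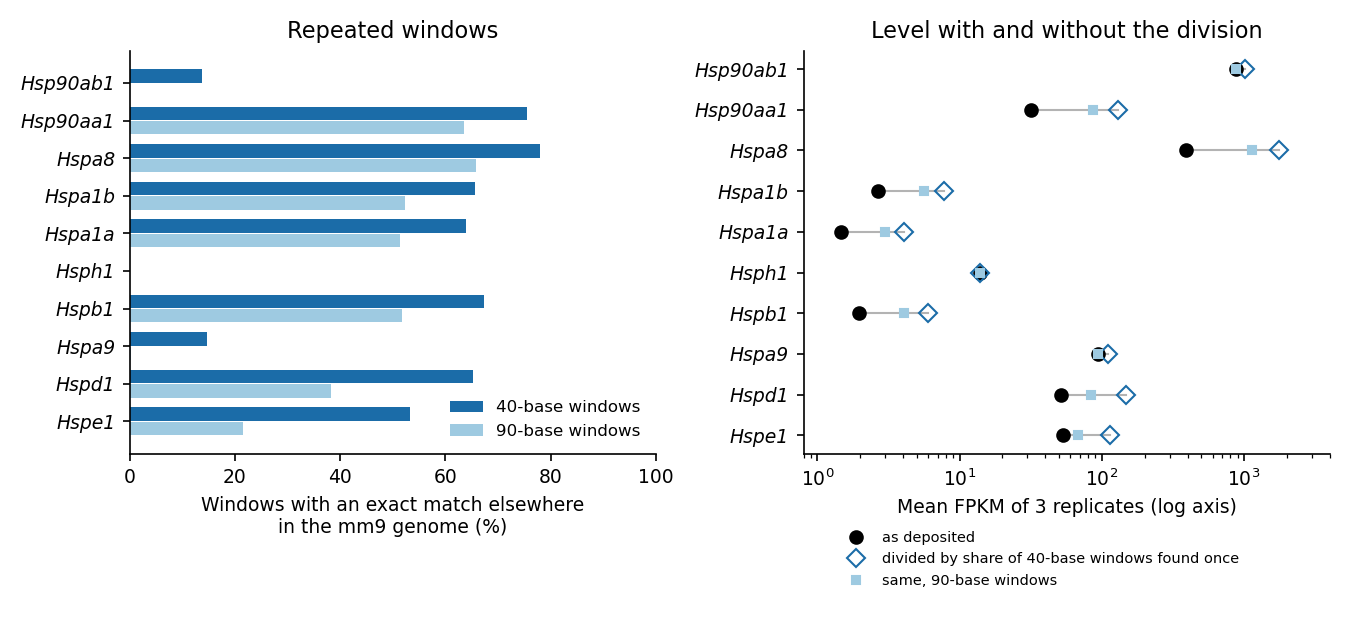
Left, percent of 40-base and 90-base transcript windows of each gene with an exact match elsewhere in mm9; right, mean FPKM of 3 replicates (log axis) as deposited and after division by the share of windows found in a single place. *Hspa8* moves from 389 to 1766 FPKM with 40-base windows and passes *Hsp90ab1*, which moves from 872 to 1011.

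The length behind each FPKM also matters. Low values of genes with several transcripts were turned into reads with each of several lengths. With the joined exons of all transcripts, 26 values could be examined, and they lay on average 0.121 reads away from whole reads. With 4 other lengths the average was 0.214 to 0.271 reads, but over 59 to 450 values. Since the values examined differed between lengths, these averages cannot decide which length lies behind the FPKM. Joined exons exceed the longest coding transcript most for *Hspe1* (1474 against 774 bases), *Hsph1* (7042 against 3802) and *Hspa8* (4156 against 2394). Over the longest coding transcript these 3 genes had 102, 25.97 and 675 FPKM, the log2 ratio of *Hspd1* to *Hspe1* was −0.86, and the order of the 10 genes did not change.

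Replicates 3 and 4 differed in a way that followed base composition, and several of the 10 genes moved with it. Of the 10, *Hspb1* and *Hspa1b* were higher in replicate 3 than in replicate 4 by a log2 ratio of at least 0.5, as were 10.8% of the 10011 genes with at least 1 FPKM in all replicates. *Hsp90aa1* was lower by at least 0.5, as were 15.4% of those genes. The other 7 lay between these limits. Over the 2502 genes of lowest GC content (31.9% to 45.4%) the median log2 ratio of replicate 3 to replicate 4 was −0.46, and over the 2502 of highest GC content (54.7% to 71.7%) it was 0.41.

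*Hspb1*, at 61.2% GC, had a log2 ratio of 0.81, where the 238 genes within 1 percentage point of its GC had a median of 0.59. *Hspa1b*, at 58.1% GC, had 0.73 beside a median of 0.44, and *Hspa1a*, at 59.2%, had 0.38 beside 0.46. *Hspa9*, at 44.1%, had −0.36 beside −0.37. These 4 genes lay between the 5th and 95th percentiles of genes of like GC.

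*Hsp90aa1*, at 45.5% GC, had −1.05 beside a median of −0.27 over 1056 genes and lay below their 5th percentile of −0.89. It was the single member outside the range from the 5th to the 95th percentile. By definition that range leaves out 5% of genes on each side, so a single one of the 10 members outside it is near the share over all genes. *Hsp90ab1* and *Hspa8*, at 50.9% and 49.6% GC, had −0.02 and 0.00. After levels were centred within 20 GC bins, the coefficient of variation was 27.6% for *Hsp90aa1*, 10.9% for *Hspa1b*, 6.6% for *Hspb1*, 3.32% for *Hspa1a* and 0.239% for *Hspa9*, but it was higher for *Hsp90ab1*, at 2.58% against 1.59% before. Replicate 3 was still the lowest for *Hsp90aa1*, at 21.6 FPKM against 34.4 and 38.0. Whether GC content made these differences was not tested.

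**Figure D4:**
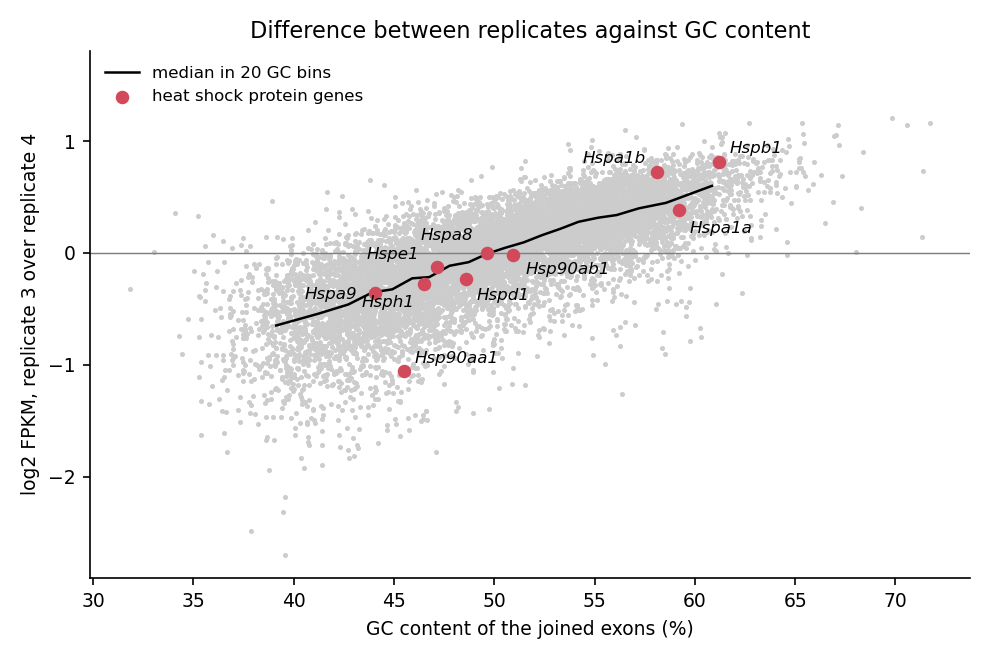
Log2 ratio of FPKM in replicate 3 to replicate 4 (y axis) against GC content of each gene (x axis, %), for genes with at least 1 FPKM in all replicates (grey), their median in 20 GC bins (line) and the 10 heat shock protein genes (red). *Hsp90aa1* at −1.05 lies below the 5th percentile of genes of like GC (−0.89), and *Hspb1* at 0.81 and *Hspa1b* at 0.73 lie above the line.

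The machinery around these chaperones was described on 85 genes in 9 lists, of which 84 were found by symbol. Of these, 75 had at least 1 FPKM in all replicates, as did 44.1% of all genes, and the same 44.1% stands beside each list count below. Their median level was 19.1 FPKM, and 19 of them were among the highest 1000 genes, which are 4.41% of all genes.

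Among regulators, *Hsf1*, the main activator of heat shock genes, had 34.4, 39.9 and 34.6 FPKM. Of the 6 members whose promoters were searched, *Hspa1a*, *Hspa1b*, *Hspb1* and *Hsph1* were below *Hsf1* in every replicate. *Hspd1* and *Hspe1* were above *Hsf1* in every replicate. *Hsbp1*, a small protein that binds heat shock factor 1, had 147 ± 11.0 FPKM. *Hsf4*, known for its role in the lens, had 9.34 ± 1.21, *Hsf2* had 3.0 ± 0.877, and *Hsf5* was listed at 0, 0 and 0.01 FPKM.

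All 12 J proteins, which deliver clients to HSP70 and start its ATPase, had at least 1 FPKM in all replicates, from *Dnajb6* at 2.62 and *Dnaja4* at 3.74 to *Dnaja2* at 42.1 and *Dnajc8* at 59.2 FPKM, a median of 14.4. All 9 exchange factors and HSP70 partners did so too, with a median of 45.7. *Stub1*, the ubiquitin ligase CHIP, led at 94.3 ± 14.1 with *Bag1* at 88.1 ± 11.0, and *Bag2* at 7.23 and *Bag4* at 4.75 were lowest. Of the 8 other HSP70 family genes 5 passed, led by *Hspa4* and *Hspa14*, with *Hspa1l* and *Hspa12b* lowest at 0.03 and 0.01.

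All 14 HSP90 co-chaperones had at least 1 FPKM in all replicates, with a median of 22.7. *Stip1*, or HOP, which links HSP70 to HSP90, had 161 ± 5.53 FPKM, and *Cdc37*, which brings kinases to HSP90, had 130 ± 18.5. The lowest were *Cdc37l1* at 5.44 and *Ahsa2* at 4.28. *Hsp90ab1* was 5.42 ± 0.240 times as high as *Stip1*, with 5.32, 5.25 and 5.70 in replicates 1, 3 and 4.

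Of 14 measured genes of the TRiC chaperonin, which folds actin and tubulin, and of prefoldin, 13 passed, with a median of 62.7 FPKM. *Cct7* at 154 ± 10.3 and *Cct2* at 140 ± 2.35 led, above the mitochondrial *Hspd1* and *Hspe1* in 3 of 3 replicates as deposited. Repeated windows were not searched for in the *Cct* genes, and with its own 40-base division *Hspd1* had 148, 137 and 160 FPKM, in the range of these subunits. *Pfdn4* was at 4.02 and *Cct6b* at 0.0667. Of the 8 small heat shock proteins other than *Hspb1* 4 passed.

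All 12 mitochondrial chaperones and proteases had at least 1 FPKM in all replicates, with a median of 16.2. *Trap1* at 35.5 and the protease subunit *Clpp* at 33.1 led, and *Grpel2* at 4.4 and *Dnajc19* at 3.20 were lowest. Every gene of that list was below *Hspa9*, *Hspd1* and *Hspe1* in mean level.

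**Figure D5:**
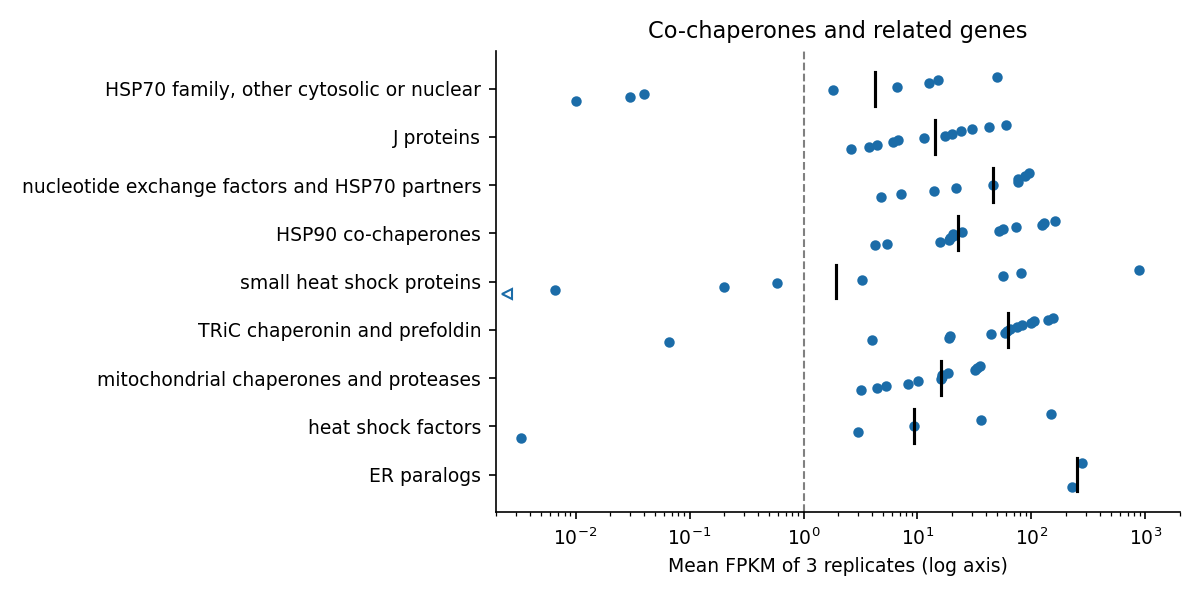
Mean FPKM of 3 replicates (log axis) of 84 measured genes in 9 lists; each point is a gene, black strokes are list medians, the dashed line is 1 FPKM and the open triangle a gene listed at 0. The ER paralogs *Hsp90b1* and *Hspa5*, at 275 and 225 FPKM, and *Cryab* at 876 stand highest in their lists.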

How the data were processed

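RNA was measured in 3 untreated melan-a libraries made with a stranded mRNA kit. Per the labels and the study's methods, the authors trimmed 10 bases from the 5′ end of reads, aligned them to mm9 with STAR 2.3.0e, removed ribosomal reads, counted reads per gene of Ensembl release 67 with HTSeq 0.5.3p3 and deposited FPKM values scaled by TMM, with 2 decimals. How counts became FPKM, the read length and the strand setting are not given in the sources used here.

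The genes were found by symbol through a table that pairs Ensembl identifiers with names. The members and lists were chosen with earlier results of these data known. All 10 members are described, and of each list the highest 2 and lowest 2 genes are named, heat shock factors and ER paralogs whole. *Hspa13* and *Hspa4l* were named for their place beside members after their values were seen. Exon lengths, GC content and windows came from GENCODE vM1 (Ensembl release 65) on NCBIM37, which covered 22324 of 22698 genes. Library sizes were estimated from low FPKM of genes with 1 transcript of at most 700 bases, whose values fall on whole reads, and the estimator was tested on simulated data. Estimated reads and the level of 3 reads cover counting error only. Coding sequences were compared in place of proteins.

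Levels are given as mean ± SD. Log2 ratios used a pseudocount of 0.1 FPKM and an exact sign permutation test over replicates, with Benjamini-Hochberg adjustment over 5 pairs. Python 3.11.15, NumPy 2.4.6, pandas 2.3.3 and numba 0.67.0 were used. The alternatives tried were leaving out each replicate, the median of replicates, rescaling each library to the same total, centring in 20 GC bins, other pseudocounts, reads in place of FPKM, 500 genes in place of 1000 and 5 FPKM in place of 1, and, added after seeing the data, division by the share of windows found in a single place and the length of the longest coding transcript.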

Additional observations from a re-analysis of the deposited data

How the results depend on the processing

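The exact sign permutation test cannot go below 0.25 with 3 replicates, so directions and sizes are compared. After division by the share of windows found in a single place, chosen after seeing the data, with 40-base and 90-base windows the log2 ratios were 3.02 and 3.39 for *Hsp90ab1* to *Hsp90aa1*, 7.23 and 7.04 for *Hspa8* to the inducible pair, 4.01 and 3.60 for *Hspa8* to *Hspa9* and, with the sign turned, 0.37 and 0.28 for *Hspd1* to *Hspe1*. The number of the 10 genes among the highest 1000 was then 6 and 6 in place of 3, and the summed share 0.876% and 0.627% in place of 0.401%. Only the 10 genes were divided and all other genes kept their deposited levels, so this count and share could not fall. Over the longest coding transcript the ratios were 7.33 for *Hspa8* to the inducible pair, 2.49 for *Hspa8* to *Hspa9* and −0.86 for *Hspd1* to *Hspe1*. With reads in place of FPKM, which compares genes without their length, they were 7.12 for *Hspa8* to the inducible pair and 0.78, reversed, for *Hspd1* to *Hspe1*. A pseudocount of 1 FPKM gave −0.57 for *Hspa1a* to *Hspa1b*. Over nuclear protein-coding genes the summed share was 0.450%. The list count fell from 75 to 60 at 5 FPKM, and 2 of the 10 genes were among the highest 500. Rescaling each library to the same total changes the unit of all levels. It also shifts the replicates against each other, since the summed levels were 378800, 394500 and 358900 FPKM in replicates 1, 3 and 4. Leaving out each replicate in turn, the median over replicates and GC centring moved every ratio, count and share they were applied to by less than the spread between replicates or 1.5 times. For ratios and shares this was fixed in advance, since with 3 replicates neither leaving 1 out nor the median can move a mean beyond the SD. GC centring shifts replicates around the mean of each gene, so it could move mean ratios only little. These settings therefore say nothing on how stable the ratios and shares are. Depth limits *Hspb1* most, whose fewest reads, 97 in replicate 4, give a counting error of 10.2% beside a coefficient of variation of 27.3%. No paired analysis was possible because there was 1 group.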
